A study of Mus musculus with 21 samples.

Results

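The genes described are the receptors of the epidermal growth factor (EGF) family, their ligands and the receptor inhibitor Errfi1. The rule was by symbol: of 9 genes listed (Egfr, Erbb2, Erbb3, Areg, Ereg, Hbegf, Btc, Tgfa and Errfi1), each was taken from the array row that carried its symbol and no other, and from the row with the highest mean where a gene had several. Of these, 8 were found, among 22180 genes with 1 symbol. Areg, which encodes amphiregulin, matched no row of the annotation used here and was not analysed here.

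The cells were primary osteoblasts from the calvaria, the flat bones of the skull roof, of C57BL/6J mice aged 7 to 10 days, with no gene altered in any group. They were grown to passage 2, differentiated from day 3 with β-glycerophosphate and ascorbic acid, kept without serum from day 10 for 24 h, and treated for 4 h. The 7 groups of 3 arrays were vehicle, human hPTH(1-34), human hPTH(1-31), PTH(1-36), bovine bPTH(3-34) and human hPTH(7-34), each peptide at 100 nM, and an amidated bovine 7-34 peptide with the substitutions D-Trp12 and Tyr34, written bPTH(7-34), at 1000 nM. Per the series' design, cells of each biological replicate were a separate preparation. PTH is parathyroid hormone, and the numbers in each name are the first and last residue of the fragment. The 3 peptides that start at residue 1 are called intact below and the other 3 truncated.

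EGF receptors are tyrosine kinases of the cell surface that pair when a ligand binds. Egfr binds Areg, Ereg, Hbegf, Btc and Tgfa, Erbb2 has no known ligand and serves as a partner, and Erbb3 binds neuregulins and has little kinase activity of its own. The ligands are made as membrane proteins and are released by sheddases such as Adam17, and the receptors signal through Ras, ERK, PI3 kinase and Stat3. Errfi1, also called Mig6, binds the Egfr kinase domain, blocks it and favours removal of the receptor. In osteoblasts, EGF receptor signalling is known to favour proliferation over maturation, and Areg is known from earlier work as a gene that PTH induces. Parathyroid hormone acts through Pth1r, and its first residues are needed to raise cyclic AMP.

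Each of the 21 Mouse Gene 2.0 ST arrays gave 1 value per transcript cluster, read here as a log2 signal. Array medians lay between 3.49 and 3.61, and arrays of the same group correlated at 0.990 to 0.993. The number of arrays limits the precision. The RNA came from whole cultures, so that fewer cells of a type and less RNA per cell cannot be told apart. The 8 osteoblast markers measured, of 10 listed, lay above the array medians with vehicle, at 3.73 (Bglap, close to the highest median) to 13.2. So did all 8 macrophage markers of a list of 8, at 7.74 to 12.2. The same held for 4 of 4 chondrocyte, 3 of 3 muscle, 4 of 5 endothelial, 2 of 4 epithelial and 1 of 3 adipocyte markers. A level above the median is therefore not particular to 1 cell type. The macrophage markers' mean level ranged from 10.07 to 10.20 over the vehicle arrays, from 9.84 to 10.17 over the intact-analog arrays and from 10.06 to 10.33 over the truncated-analog arrays, and 0 of 8 were called between intact analogs and vehicle. Their part in the results below was not tested. Differences are given as log2 values from 1 limma model of all 7 groups, with Benjamini-Hochberg adjustment over the 22180 genes, and a gene is called where the adjusted p is under 0.05. The 3 vehicle arrays serve every comparison with vehicle, so those comparisons are not independent.

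Egfr, the receptor itself, fell with all 3 intact analogs and was called with none of the truncated ones. Its vehicle arrays read 9.49, 9.53 and 9.55. With hPTH(1-34) they read 8.82, 8.74 and 8.88, with hPTH(1-31) 8.86, 8.73 and 8.76, and with PTH(1-36) 8.98, 8.78 and 8.97. All 9 intact-analog arrays lay below all 12 others, the lowest of which read 9.41. The bPTH(3-34) arrays read 9.59, 9.66 and 9.62, all above the highest vehicle array. The bPTH(7-34) arrays read 9.50, 9.52 and 9.63 and the hPTH(7-34) arrays 9.41, 9.47 and 9.58, with ranges that overlapped that of vehicle.

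Against vehicle, Egfr differed by -0.71 ± 0.079 (SE, 3 arrays against 3) with hPTH(1-34), a signal 1.64-fold lower (limma adjusted p = 4.69e-06). The difference was -0.74 with hPTH(1-31) (limma adjusted p = 2.76e-06) and -0.61 with PTH(1-36) (limma adjusted p = 3.22e-05). Averaged over the 9 intact-analog arrays it was -0.69 ± 0.064. The truncated analogs differed from vehicle by 0.10 with bPTH(3-34) (95% interval -0.065 to 0.27), 0.027 with bPTH(7-34) and -0.037 with hPTH(7-34) (95% interval -0.20 to 0.13). By group mean the order of the levels was bPTH(3-34) at 9.62 ± 0.035 (SD, n = 3), bPTH(7-34) at 9.55 ± 0.070, vehicle at 9.52 ± 0.031, hPTH(7-34) at 9.49 ± 0.086, PTH(1-36) at 8.91 ± 0.11, hPTH(1-34) at 8.81 ± 0.070 and hPTH(1-31) at 8.78 ± 0.068. Only the step from hPTH(7-34) to PTH(1-36) separated neighbours in that order without overlap of their arrays.

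Erbb2, the partner receptor, fell with the intact analogs as well. The vehicle arrays read 6.77, 6.84 and 6.67. The hPTH(1-34) arrays read 6.31, 6.01 and 6.30, the hPTH(1-31) arrays 6.09, 6.23 and 6.21, and the PTH(1-36) arrays 6.22, 6.37 and 5.80. The 9 intact-analog arrays, from 5.80 to 6.37, did not overlap the other 12, from 6.60 to 6.87, and the PTH(1-36) arrays were the most spread (6.13 ± 0.30, SD, n = 3).

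The difference of Erbb2 from vehicle was -0.55 ± 0.12 (SE) with hPTH(1-34), -0.58 with hPTH(1-31) and -0.63 with PTH(1-36), with limma adjusted p = 0.00700, 0.00456 and 0.00278. Averaged over the intact analogs it was -0.59 ± 0.10 (limma adjusted p = 0.000498). Without replicate 2 of hPTH(1-34), its lowest array, that analog's call was lost (difference -0.46, limma adjusted p = 0.0512). With bPTH(3-34) and bPTH(7-34) the differences from vehicle were 0 and -0.0033, and with hPTH(7-34) the difference was -0.10 (95% interval -0.37 to 0.16).

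Erbb3, the neuregulin receptor, ranged from 4.98 to 5.73 over the 21 arrays and was called in no comparison. Its intact-analog arrays (5.06 to 5.49) lay inside the range of the others. The mean of the intact analogs differed from vehicle by 0.064 (95% interval -0.20 to 0.33).

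**Figure D1:**
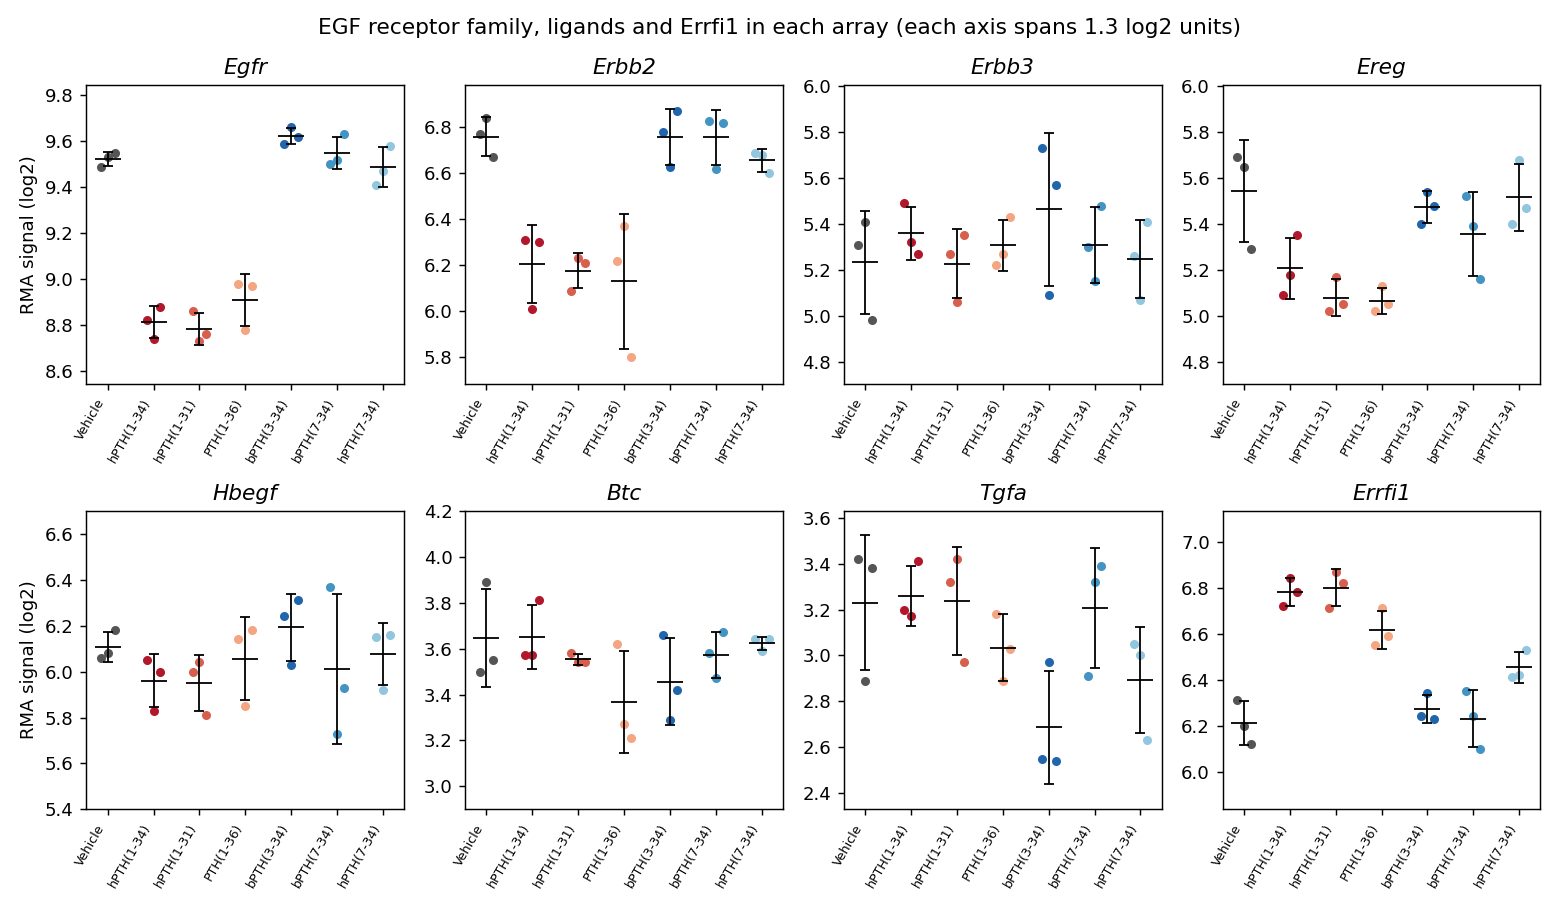
Log2 signal of the 8 genes (one panel each) in each of the 21 arrays, by treatment group; points are arrays, and the line and bar are the group mean and SD (n = 3). The 9 intact-analog arrays stand below the other 12 for Egfr and Erbb2, above them for Errfi1, and overlap them for the remaining genes.

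Among the ligands, Ereg, which encodes epiregulin, was lower with intact analogs, while Hbegf, Btc and Tgfa were not called against vehicle. Ereg read 5.69, 5.65 and 5.29 with vehicle. It read 5.09, 5.18 and 5.35 with hPTH(1-34), 5.02, 5.17 and 5.05 with hPTH(1-31), and 5.02, 5.13 and 5.05 with PTH(1-36). The hPTH(1-31) and PTH(1-36) arrays all lay below the lowest vehicle array, and 1 hPTH(1-34) array lay above it. With bPTH(3-34) the arrays read 5.40, 5.54 and 5.48, with bPTH(7-34) 5.52, 5.39 and 5.16, and with hPTH(7-34) 5.40, 5.68 and 5.47. Of these 9 arrays, 1 of bPTH(7-34), at 5.16, lay below the lowest vehicle array.

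Ereg differed from vehicle by -0.46 ± 0.12 (SE) with hPTH(1-31) and by -0.48 with PTH(1-36) (limma adjusted p = 0.0155 and 0.0149), and by -0.34 with hPTH(1-34), which was not called (limma adjusted p = 0.0895). Over the 3 intact analogs the difference was -0.43 ± 0.095 (limma adjusted p = 0.00498). These calls rested on few arrays. Leaving out vehicle array 1 or 2, or array 1 or 3 of hPTH(1-31), ended the hPTH(1-31) call (limma adjusted p up to 0.0848). Leaving out vehicle array 1 or 2, or array 1 of PTH(1-36), ended the PTH(1-36) call (up to 0.0816), and leaving out vehicle array 1 ended the call over the intact analogs (0.0552).

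A second row of the array carries the symbol Ereg, at a lower signal of 3.50 to 4.30. On that row the mean of the intact analogs differed from vehicle by -0.19 (limma adjusted p = 0.507), and from the mean of bPTH(3-34) and hPTH(7-34) by 0.024, against -0.38 on the main row. The fall of Ereg is therefore a reading of 1 of its 2 rows. In the RefSeq gene table Epgn, Ereg, Areg and Btc follow each other as neighbouring protein-coding genes. Of the measured neighbours, Epgn, which encodes the ligand epigen, differed by 0.060 and Btc by -0.12 between intact analogs and vehicle, and neither was called.

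Hbegf, which encodes heparin-binding EGF-like growth factor, ranged from 5.73 to 6.37, with a difference of -0.12 between intact analogs and vehicle (95% interval -0.36 to 0.12). Btc, which encodes betacellulin, ranged from 3.21 to 3.89 and lay below the array's median in 10 of 21 arrays. Its largest difference from vehicle, -0.28 with PTH(1-36), was not called (limma adjusted p = 0.222).

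Tgfa, which encodes transforming growth factor α, lay below the array median on all 21 arrays (2.54 to 3.42), so that its values are close to the array's low end. It read 3.42, 2.89 and 3.38 with vehicle and 2.55, 2.97 and 2.54 with bPTH(3-34), a difference of -0.54 ± 0.17 that was not called (limma adjusted p = 0.699). With hPTH(7-34) it read 3.05, 3.00 and 2.63, and the hPTH(1-34) arrays read 3.20, 3.17 and 3.41. It was lower with bPTH(3-34) than with hPTH(1-34) (-0.57, limma adjusted p = 0.0471), and higher in the mean of the intact analogs than in the mean of bPTH(3-34) and hPTH(7-34) (0.39 ± 0.11, limma adjusted p = 0.0201). The first call was lost without any 1 of the 3 hPTH(1-34) arrays or bPTH(3-34) replicate 1 or 3 (limma adjusted p up to 0.166). The second was lost without bPTH(3-34) replicate 1 or 3 or hPTH(7-34) replicate 3 (up to 0.0658).

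Errfi1, the inhibitor of the receptor kinase, rose with all 3 intact analogs. Vehicle arrays read 6.31, 6.20 and 6.12. The hPTH(1-34) arrays read 6.72, 6.84 and 6.78, the hPTH(1-31) arrays 6.71, 6.87 and 6.82, and the PTH(1-36) arrays 6.55, 6.71 and 6.59. All 9 stood above the other 12, although narrowly, since the highest of those was an hPTH(7-34) array at 6.53. The rise was 0.57 ± 0.085 (SE) with hPTH(1-34), or 1.48-fold (limma adjusted p = 0.000148), 0.59 with hPTH(1-31), or 1.51-fold (limma adjusted p = 9.77e-05), and 0.41 with PTH(1-36), or 1.33-fold (limma adjusted p = 0.00444).

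With bPTH(3-34) Errfi1 read 6.24, 6.34 and 6.23 and with bPTH(7-34) 6.35, 6.24 and 6.10, both groups overlapping vehicle. With hPTH(7-34) it read 6.41, 6.42 and 6.53, above all 3 vehicle arrays, with a difference of 0.24 (95% interval 0.065 to 0.42) that was not called over all genes (limma adjusted p = 0.464).

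**Figure D2:**
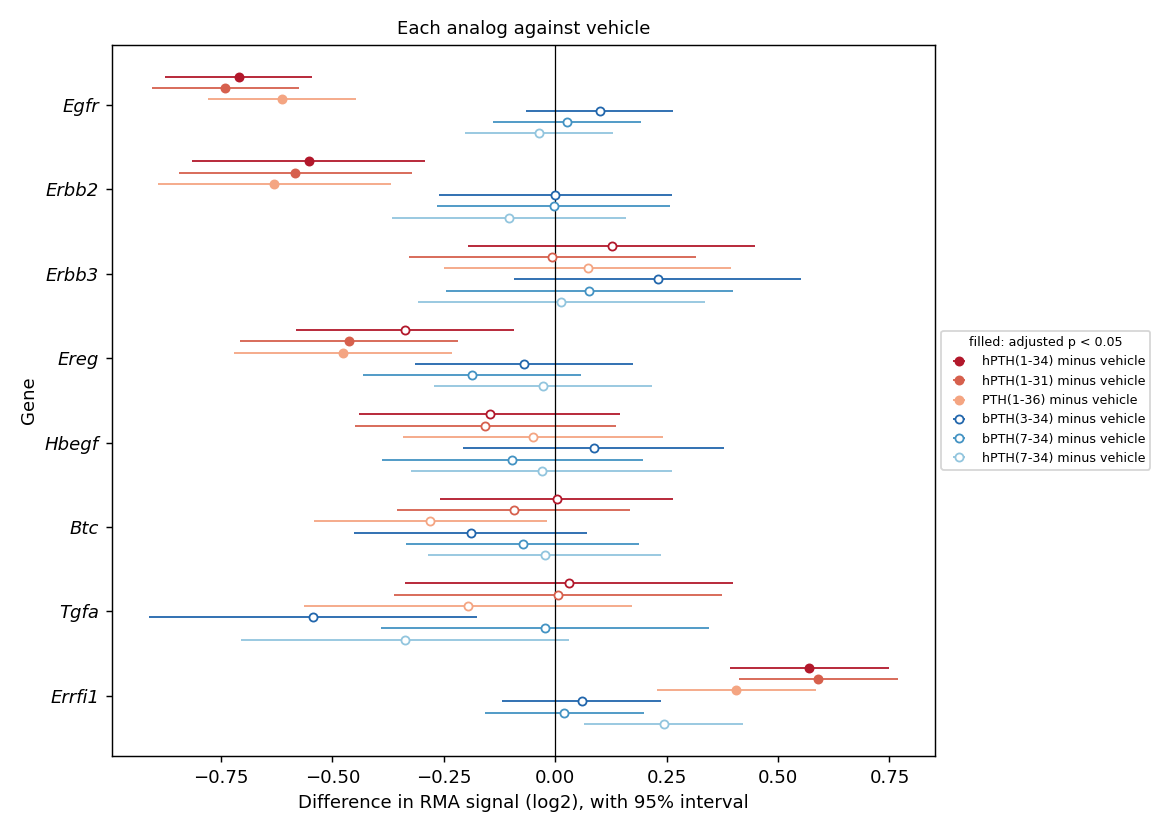
Difference in log2 signal from vehicle (x axis) for each gene and each of the 6 analogs, with 95% intervals; filled points have an adjusted p under 0.05. Egfr and Erbb2 lie left of 0 and Errfi1 right of 0 with the 3 intact analogs, while none of the truncated analogs has a filled point.

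The promoters of the 3 genes whose arrays separated without overlap are shown because PTH is known to raise cyclic AMP in osteoblasts and the cyclic AMP response element is the site that the factor CREB is known to bind. Sequences are RefSeq's for GRCm38.p6, on the gene's strand, from 250 bases before to 50 after an annotated start. Windows of 6 of the 9 listed genes were examined. Erbb3 and Ereg had no window in the set used. Hbegf was left out of the search by choice, so whether its promoter holds these matches is not reported here. RefSeq lists a pair of starts for Errfi1, 1274 bases apart, and the window of the downstream start (chr4:150854820-150855119, plus strand) is given. The Egfr window is chr11:16751953-16752252 and the Erbb2 window chr11:98412234-98412533, both on the plus strand. Capitals mark matches on either strand to the full element TGACGTCA or to its short form TGACG.
Errfi1: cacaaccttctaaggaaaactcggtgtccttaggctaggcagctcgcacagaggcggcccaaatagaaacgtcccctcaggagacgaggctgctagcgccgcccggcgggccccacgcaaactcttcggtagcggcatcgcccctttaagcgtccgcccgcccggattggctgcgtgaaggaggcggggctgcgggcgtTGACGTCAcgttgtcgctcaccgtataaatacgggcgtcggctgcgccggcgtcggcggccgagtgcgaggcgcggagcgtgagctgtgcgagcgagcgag
Egfr: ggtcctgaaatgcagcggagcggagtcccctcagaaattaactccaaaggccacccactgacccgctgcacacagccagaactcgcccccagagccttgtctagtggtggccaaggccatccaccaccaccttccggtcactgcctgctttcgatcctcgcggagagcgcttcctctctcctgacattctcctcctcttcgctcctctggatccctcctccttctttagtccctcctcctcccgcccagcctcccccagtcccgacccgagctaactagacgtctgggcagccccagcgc
Erbb2: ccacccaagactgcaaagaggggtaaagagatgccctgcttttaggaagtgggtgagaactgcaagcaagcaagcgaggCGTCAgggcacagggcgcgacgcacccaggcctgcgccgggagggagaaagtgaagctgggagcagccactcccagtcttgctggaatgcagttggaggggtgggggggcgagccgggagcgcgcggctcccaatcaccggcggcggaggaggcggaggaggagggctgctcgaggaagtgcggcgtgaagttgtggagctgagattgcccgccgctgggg

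The full element occurred once in the downstream Errfi1 window, at -51 from the start, and its palindrome holds both overlapping short matches there. Among the other windows examined, it occurred only in that of the unmeasured Areg, at -61. Of 32851 RefSeq promoter windows of this length, 1.79% held it. The short form occurred once in the Erbb2 window, at -171, once in the Btc window, at -113, and in 20.8% of all windows. The upstream Errfi1 window and the Egfr window held neither. A match is a run of letters, and which start these cells used was not measured.

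Counted over the family, 3 of 8 genes were called with hPTH(1-34), 1 higher and 2 lower, where 8.64% of all genes were called. With hPTH(1-31), 4 of 8 were called, 1 higher and 3 lower, against 8.70% of all genes, and with PTH(1-36) likewise 4 of 8, against 7.23%. The median difference of the 8 genes was -0.072, -0.13 and -0.24 with these analogs, where the median of all genes was -0.013, -0.017 and -0.020. Between the mean of the intact analogs and vehicle, 4 of 8 were called (11.9% of all genes), and by the F test over all 6 analogs 4 of 8 (12.2% of all genes): Egfr, Errfi1, Erbb2 and Ereg. Of the 8 genes, 3 had all 9 intact-analog arrays beyond the other 12, as did 5.96% of all genes.

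The truncated analogs called 0 of 8 in limma. With bPTH(3-34) and with bPTH(7-34) 0% of all genes were called, and with hPTH(7-34) 0.0721%. At an unadjusted p under 0.05 the counts were 1 of 8 with bPTH(3-34) (Tgfa), 0 with bPTH(7-34) and 1 with hPTH(7-34) (Errfi1). The bPTH(7-34) cultures had a dose of 1000 nM, and this peptide was therefore set only against vehicle.

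Peptides at the same 100 nM and 4 h were compared directly in 5 pairs, each adjusted over all genes. Among intact peptides, hPTH(1-31), which lacks the last residues of hPTH(1-34), called 0 of 8 against it (0% of all genes, and 0 of 8 at an unadjusted p under 0.05). PTH(1-36), which ends 2 residues later, also called 0 of 8 (0.00451% of all genes, and 1 of 8, Btc, at an unadjusted p under 0.05). For Egfr the interval of the difference from hPTH(1-34) was -0.20 to 0.14 with hPTH(1-31) and -0.069 to 0.26 with PTH(1-36). For Errfi1 it was -0.16 to 0.20 and -0.34 to 0.015, and all 3 PTH(1-36) arrays read below the hPTH(1-34) arrays. For Erbb2 it was -0.29 to 0.23 and -0.34 to 0.19, and for Ereg -0.37 to 0.12 and -0.38 to 0.10. These intervals bound the differences and do not show that the peptides act alike.

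Peptides that lack the first residues differed from hPTH(1-34). With bPTH(3-34), which lacks residues 1 and 2 and is the bovine sequence, 4 of 8 genes were called, 2 higher and 2 lower (9.32% of all genes). Egfr was 0.81 ± 0.079 higher than with hPTH(1-34) (limma adjusted p = 9.23e-07) and Erbb2 0.55 ± 0.12 higher (limma adjusted p = 0.00671). Errfi1 was lower (-0.51 ± 0.085, limma adjusted p = 0.000460), and Tgfa was the fourth gene called.

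With hPTH(7-34), the human sequence without residues 1 to 6, 3 of 8 genes were called, 2 higher and 1 lower (10.9% of all genes). Egfr was 0.67 ± 0.079 higher than with hPTH(1-34) (limma adjusted p = 9.15e-06), Erbb2 0.45 higher (limma adjusted p = 0.0243) and Errfi1 lower (-0.33, limma adjusted p = 0.0167). The Erbb2 and Errfi1 calls were each lost without hPTH(1-34) replicate 2 or hPTH(7-34) replicate 1 or 2 (limma adjusted p up to 0.130 and 0.0720). The call count was then 1 of 8, Egfr.

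Between hPTH(7-34) and bPTH(3-34), which differ in species as well as in their first residue, 0 of 8 were called (0.0496% of all genes, and 1 of 8, Errfi1, at an unadjusted p under 0.05). Errfi1 was 0.18 higher with hPTH(7-34) (95% interval 0.0051 to 0.36, limma adjusted p = 0.959). Egfr differed by -0.14 (95% interval -0.30 to 0.029).

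At 100 nM, the mean of the 3 intact analogs and the mean of bPTH(3-34) and hPTH(7-34) differed in 5 of 8 genes, 2 higher and 3 lower with the intact analogs, where 20.3% of all genes were called. Egfr differed by -0.72 ± 0.051 (SE), Erbb2 by -0.54 ± 0.080, Ereg by -0.38 ± 0.075, Errfi1 by 0.37 ± 0.055 and Tgfa by 0.39. The median of the 8 was -0.10, and that of all genes 0.0033. In the same contrast all 8 macrophage markers were lower with the intact analogs (-0.22 to -0.044, median -0.17) and 1 of 8 was called. Of 4 chondrocyte markers 3 were called, 2 higher and 1 lower, with 3 of 8 osteoblast and 2 of 5 endothelial markers. Their part in the family's differences was not tested.

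**Figure D3:**
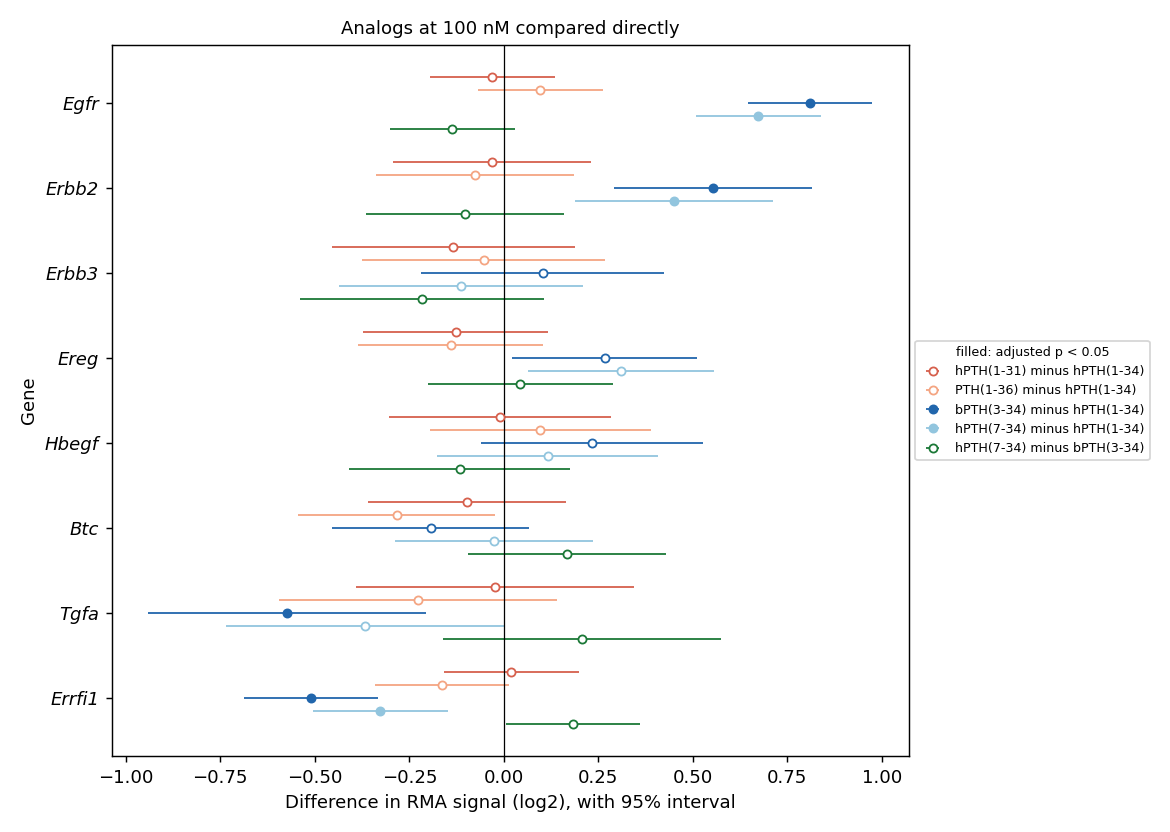
Difference in log2 signal between pairs of peptides given at 100 nM (x axis) for each gene, with 95% intervals; filled points have an adjusted p under 0.05. Pairs of intact peptides and the pair of truncated peptides have only open points, while bPTH(3-34) and hPTH(7-34) stand apart from hPTH(1-34) for Egfr, Erbb2 and Errfi1.

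The rest of the pathway was described through 5 lists, as the mean of the intact analogs against vehicle. Genes named below are the 4 of each list with the smallest p of the F test. Among other receptors and ligands, 0 of 7 measured genes rose and 1 fell, with a median of -0.041. Over all genes 11.9% were called in this contrast and the median was -0.016. The 1 of 7 called (14.3%) is close to that share. The gene that fell was Nrg1, which encodes a neuregulin that binds Erbb3 and Erbb4: it went from 6.41 ± 0.14 (SD, n = 3) with vehicle to 5.73 over the intact analogs (-0.68 ± 0.11, SE, limma adjusted p = 0.000168). Erbb4, the other neuregulin receptor, differed by -0.041, and Nrg4 by -0.14, neither called.

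Of 11 sheddases and their regulators, 1 rose and 2 fell (27.3% called, all genes 11.9%), with a median of -0.049. Rhbdf1, an inactive rhomboid that guides Adam17 to the cell surface, fell by 0.59 ± 0.093 on the log2 scale (limma adjusted p = 0.000176). Timp3, an inhibitor of Adam17, differed by -0.34 (limma adjusted p = 0.00604), and leaving out vehicle array 2 ended that call (0.0643). Adam9 differed by 0.19 (limma adjusted p = 0.0386), a call that was lost without any single array except hPTH(1-34) replicate 3 and PTH(1-36) replicate 3 (up to 0.175). Adam17, a sheddase of several of these ligands, differed by -0.15 and was not called (limma adjusted p = 0.240).

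Of 22 adaptors and effectors, 17 were measured, 2 rose and 3 fell (29.4% called, all genes 11.9%), with a median of -0.0089. Map2k1, the kinase that activates ERK, rose by 0.71 ± 0.085 (limma adjusted p = 8.39e-06), and Stat3, a transcription factor downstream of the receptor and of cytokines, by 0.65 ± 0.078 (limma adjusted p = 9.29e-06). Pik3r1, a regulatory subunit of PI3 kinase, fell by 0.61 ± 0.056 (limma adjusted p = 2.84e-07), and Plcg1, a phospholipase that binds the receptor, by 0.38 (limma adjusted p = 0.000919).

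Of 21 genes of receptor restraint and turnover, 4 rose and 1 fell (23.8% called, all genes 11.9%), with a median of 0.064. Lrig1, a membrane protein that binds EGF receptors and promotes their degradation, went from 5.62 ± 0.095 (SD, n = 3) to 6.82 (1.20 ± 0.085, SE, limma adjusted p = 9.68e-09). By analog, Lrig1 differed from vehicle by 1.26 with hPTH(1-34), 1.29 with hPTH(1-31) and 1.04 with PTH(1-36), and by 0.15 to 0.23 with the truncated peptides, which were not called. Ptpn1, a phosphatase that acts on the receptor, rose by 0.76 ± 0.067 (limma adjusted p = 1.73e-07), and Socs4, which favours receptor degradation, by 0.29 (limma adjusted p = 0.0245), where leaving out vehicle array 1 or 3 ended the call (up to 0.149). Erbin, a scaffold that binds Erbb2, fell by 0.39 ± 0.060 (limma adjusted p = 0.000171).

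Of 16 ERK-responsive genes, 15 were measured, 5 rose and 4 fell (60% called, all genes 11.9%), with a median of -0.15. Plaur, the urokinase receptor, went from 7.17 to 8.89 (1.72 ± 0.13, SE, limma adjusted p = 1.38e-08). Fos, a subunit of AP-1, rose by 0.59 (limma adjusted p = 0.00144) and Ier3, an immediate early gene, by 0.58 (limma adjusted p = 7.38e-05), while Ccnd1, which encodes cyclin D1, fell by 0.31 (limma adjusted p = 0.00282). Fos and several others of this list also respond to cyclic AMP, and the list does not read ERK activity. No gene of the 5 lists was called with bPTH(3-34), bPTH(7-34) or hPTH(7-34) against vehicle.

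**Figure D4:**
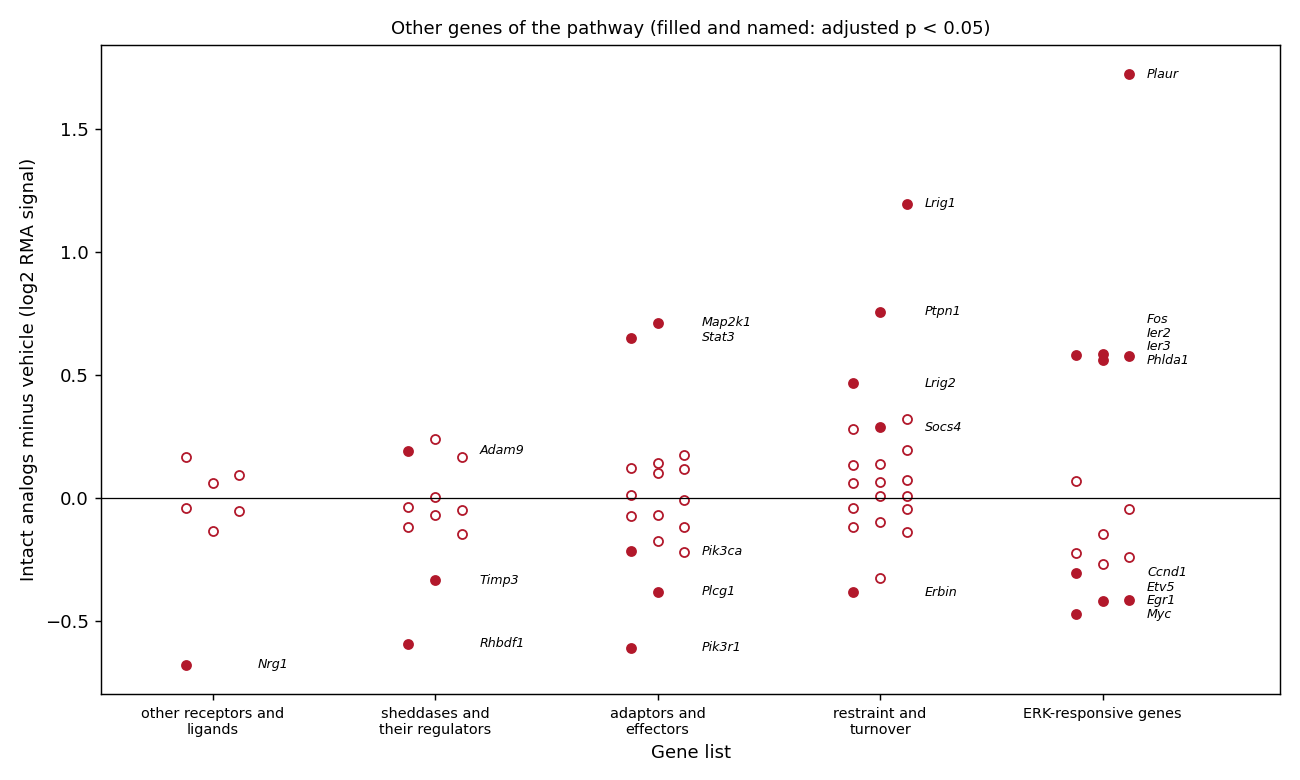
Difference in log2 signal between the mean of the 3 intact analogs and vehicle (y axis) for each measured gene (points) of the 5 pathway lists (x axis); filled and named points have an adjusted p under 0.05. Plaur (1.72) and Lrig1 (1.20) stand highest and Nrg1 (-0.68) is the one filled point among other receptors and ligands.

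Markers of cell types moved in part beside these results. With intact analogs against vehicle, of 8 measured osteoblast markers, Alpl rose by 0.47, and Sp7 and Pth1r, the PTH receptor itself, fell by 0.64 and 1.07. Of 5 endothelial markers, Kdr rose by 0.55 and Tek fell by 0.83, and of 4 chondrocyte markers Acan rose by 0.39 and Sox9 fell by 0.38, all with limma adjusted p of 0.0478 or less. The called counts were 3 of 8, 2 of 5 and 2 of 4, where 11.9% of all genes were called. None of 4 epithelial, 3 adipocyte and 3 muscle markers was called. Mean levels of the endothelial list ranged from 4.06 to 4.23 over vehicle arrays, 3.67 to 4.16 over intact-analog arrays and 3.89 to 4.25 over truncated-analog arrays, and those of the chondrocyte list from 6.80 to 6.84, 6.66 to 6.96 and 6.65 to 6.86. The part of these cells in the family's differences was not tested.

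For the 3 genes with the smallest F-test p, the genes most alike across the 21 arrays were found by Pearson correlation. The arrays fall into intact-analog arrays and others, so that r rests largely on that step, and arrays share treatments. Closest to Egfr were Irs1, the insulin receptor substrate (r = 0.993), Adamts5, an aggrecanase (r = 0.983), and Tns1, the focal adhesion protein tensin (r = 0.982). Within the 9 intact-analog arrays alone r of Irs1 with Egfr was 0.909, and within the other 12 it was 0.811. In the same order the values were 0.666 and 0.461 for Adamts5, and 0.619 and 0.762 for Tns1. Irs1 differed by -1.22 between intact analogs and vehicle.

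Closest to Errfi1 were Nap1l5 (r = 0.939), Tinf2, a telomere protein (r = 0.937), and Rnf4, a ubiquitin ligase (r = 0.936). Within the 9 intact-analog arrays and within the other 12, r was 0.755 and 0.643 for Nap1l5. It was 0.425 and 0.808 for Tinf2, and 0.616 and 0.671 for Rnf4. Closest to Erbb2 were Tgfb3, the ligand TGF-β3 (r = 0.950), Amotl2, an angiomotin-like protein (r = 0.931), and Vgll3, a cofactor of TEAD factors (r = 0.927). For Vgll3 and Erbb2 the value within the 12 other arrays was 0.077, against 0.622 within the 9 intact-analog arrays. In that order the values were 0.402 and 0.628 for Amotl2, and 0.697 and 0.670 for Tgfb3.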

How the data were processed

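Per the submitters' processing notes, the authors processed the arrays with RMA in Affymetrix Expression Console, and versions and settings are not given in the sources used here. RMA corrects background, equalises array distributions and summarises probes. The deposited table held 41345 transcript clusters on 21 arrays, and its values (0.25 to 13.6) are read as log2 signals from their range, since the file does not name the scale. Genes were named through the platform annotation. Of the clusters, 23521 had 1 symbol, 1814 had several and 16010 were not in the annotation, and the row with the highest mean was kept, which left 22180 genes.

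limma 3.58.1 in R 4.3.3 fitted 7 group means, with moderated variances (lmFit, contrasts.fit, eBayes) and Benjamini-Hochberg adjustment over all genes, and was tested on simulated data. In all, 5 peptide pairs at a matched dose, 6 comparisons with vehicle, 2 pooled contrasts and an F test were made. Alternatives were a filter on low values, all clusters, renormalisation, eBayes with a trend and robust variances, only the groups compared, replicate number as a block, the mean of a gene's clusters, and leaving out each array. Genes named outside the family were the 4 of each pathway list with the smallest F-test p, the called markers and the 3 genes most correlated with each of 3 members. The members and lists were chosen with earlier results of these data known, and the called markers and the second Ereg row were named after their values were seen.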

Additional observations from a re-analysis of the deposited data

How the results depend on the processing

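The family's 27 calls gave 187 values under the other settings tried, apart from left-out arrays and the second Ereg row: 172 kept direction and side of the threshold, 15 kept direction but lost the call, and 0 changed sign. Leaving out each array gave 231 values, of which 208 kept the call, 23 lost it and 0 changed sign. Fitted with only the groups compared, which leaves fewer arrays for the variance, the count fell from 4 to 1 for PTH(1-36) against vehicle and from 3 to 1 for hPTH(7-34) against hPTH(1-34), with Egfr kept in both. Leaving out 1 array each, the latter count ranged from 1 to 3. The second row of Ereg was an alternative chosen after seeing the data. On it the difference between the intact analogs and the mean of bPTH(3-34) and hPTH(7-34) turned from -0.38 to 0.024 (limma adjusted p = 0.917). With the mean of both Ereg rows, the calls with hPTH(1-31) and PTH(1-36) were lost (limma adjusted p = 0.108 and 0.0951). The call between the intact analogs and the mean of bPTH(3-34) and hPTH(7-34) was also lost (-0.18, limma adjusted p = 0.117). Over all 41345 clusters and after a further quantile normalization, Tgfa between bPTH(3-34) and hPTH(1-34) and Erbb2 between hPTH(7-34) and hPTH(1-34) lost their calls (adjusted p from 0.0517 to 0.0940). The filter on low values tested 13678 genes and dropped Tgfa. Deviations of same-numbered arrays from their group means correlated weakly (r from -0.081 to 0.16 over 63 pairs, median 0.034, 1 above 0.1). Over 126 pairs of other numbers the median was -0.013 and the highest r 0.085. Of the 21 arrays, 14 were closest to their own number, so a weak pairing by number may be present. The main model did not use replicate number. With replicate number as a block, 1 call was lost, Tgfa between bPTH(3-34) and hPTH(1-34) (limma adjusted p = 0.0614). The count there was 3 in place of 4, and no other count changed. Among 20 pathway genes, 360 of 378 values kept their side of the threshold, and the 18 that did not were those of Adam9, Socs4 and Timp3. Array number, and for Tgfa and Btc a signal near the array median or below it, limit the precision.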
